A study of Mus musculus with 2 samples.

Results

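The genes followed here, cell by cell, run mitosis, namely the kinases Plk1, Aurka, Aurkb, Bub1, Bub1b, Ttk, Nek2, Cdk1 and Plk4 and the cyclin Ccnb1. They were taken by symbol, and 10 of the 32285 genes in the count matrices matched, each once. The samples were 2 droplet single-cell libraries of pancreatic tumours, labelled pancreas, from mice labelled 6 weeks of age, 1 library a group. EL1 stands for FVB/N-EL1-Luc/EL1-TAg mice, in which the elastase I promoter, active in acinar cells, drives SV40 large T antigen and, on a separate construct, firefly luciferase. WTg stands for the same line crossed with mice made in BL/6 eggs, in which the CAG promoter, active in most tissues, drives the open reading frame of Mettl3. Both groups therefore carry the viral oncogene, and the Mettl3 transgene and the change of strain background cannot be told apart. The number of mice in a library is not given in the sources used here. The study asked whether Plk1 goes with Mettl3, the methyltransferase that writes N6-methyladenosine on mRNA.

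The members act in order through cell division. Cdk1 bound to cyclin B1, the product of Ccnb1, starts mitosis, and Plk1 and Aurora A, the product of Aurka, help to switch that complex on and to build the spindle poles. Nek2 separates the centrosomes and Plk4 starts the duplication of centrioles, earlier in the cycle. Bub1, Bub1b and Ttk keep the spindle assembly checkpoint closed until chromosomes are attached, and Aurora B, the product of Aurkb, corrects wrong attachments. Large T antigen binds the retinoblastoma family of proteins, which otherwise hold back cell cycle genes.

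All 10 genes are protein coding. In GRCm38 coordinates, Plk1 (ENSMUSG00000030867) lies on chromosome 7 from 122159439 to 122169873 and Plk4 (ENSMUSG00000025758) on chromosome 3 from 40800019 to 40816883, both on the plus strand. Cdk1 (ENSMUSG00000019942) lies on chromosome 10 from 69335146 to 69352938 and Ccnb1 (ENSMUSG00000041431) on chromosome 13 from 100778650 to 100786570, both on the minus strand. Chromosome 2 holds Aurka (ENSMUSG00000027496) from 172356190 to 172370535 and Bub1 (ENSMUSG00000027379) from 127801122 to 127831865 on the minus strand, and Bub1b (ENSMUSG00000040084) from 118598211 to 118641591 on the plus strand. Aurkb (ENSMUSG00000020897) lies on chromosome 11 from 69045647 to 69051664, Ttk (ENSMUSG00000038379) on chromosome 9 from 83834689 to 83872389 and Nek2 (ENSMUSG00000026622) on chromosome 1 from 191821444 to 191833050, all on the plus strand. The annotation places Gm44985 opposite to Plk1 and Gm38037 opposite to Nek2, with overlapping exons in both cases. The other 8 members overlap no annotated gene.

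The promoters of genes that peak in late cycle often hold the cell cycle genes homology region, read here as TTTGAA or TTTAAA, and CCAAT boxes, which nuclear factor Y binds. RefSeq windows from 250 bases before to 50 bases after the start (GRCm38.p6) were given for 9 of the 10 members, all but Aurkb, and were searched on both strands. TTTGAA stood in 5 of the 9, against 17.9% of 32851 windows, and TTTAAA in 4 of the 9, against 13.2%. CCAAT stood in 8 of the 9, against 37.4% of all windows, and at least 2 copies of it in 6 of the 9, against 11.7%. Plk4 was the member without CCAAT. The windows of 4 members of the mitotic peak and of Plk4 are printed 5′ to 3′ on the gene's strand, with every match of the 3 motifs in capitals, ATTGG being CCAAT on the other strand. In this order they span chr7:122159185-122159484 (plus), chr2:172370521-172370820 (minus), chr10:69352863-69353162 (minus), chr13:100786437-100786736 (minus) and chr3:40799701-40800000 (plus).
Plk1: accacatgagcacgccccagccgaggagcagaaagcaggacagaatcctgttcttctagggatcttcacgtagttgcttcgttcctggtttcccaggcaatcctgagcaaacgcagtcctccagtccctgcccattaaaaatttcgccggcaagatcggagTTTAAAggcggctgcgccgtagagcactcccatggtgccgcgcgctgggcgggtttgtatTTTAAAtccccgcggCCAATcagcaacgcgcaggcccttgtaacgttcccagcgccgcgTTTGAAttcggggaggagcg
Aurka: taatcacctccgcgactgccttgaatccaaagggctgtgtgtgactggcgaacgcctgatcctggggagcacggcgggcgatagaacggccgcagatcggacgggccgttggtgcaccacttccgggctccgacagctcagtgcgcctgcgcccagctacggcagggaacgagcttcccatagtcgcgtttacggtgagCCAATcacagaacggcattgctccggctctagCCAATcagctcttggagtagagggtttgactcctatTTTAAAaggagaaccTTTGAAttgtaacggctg
Cdk1: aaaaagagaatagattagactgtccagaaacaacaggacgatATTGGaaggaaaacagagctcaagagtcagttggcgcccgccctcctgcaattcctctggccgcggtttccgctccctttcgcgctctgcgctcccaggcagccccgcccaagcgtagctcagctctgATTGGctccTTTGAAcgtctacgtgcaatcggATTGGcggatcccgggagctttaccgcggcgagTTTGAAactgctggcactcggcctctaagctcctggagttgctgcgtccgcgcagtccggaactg
Ccnb1: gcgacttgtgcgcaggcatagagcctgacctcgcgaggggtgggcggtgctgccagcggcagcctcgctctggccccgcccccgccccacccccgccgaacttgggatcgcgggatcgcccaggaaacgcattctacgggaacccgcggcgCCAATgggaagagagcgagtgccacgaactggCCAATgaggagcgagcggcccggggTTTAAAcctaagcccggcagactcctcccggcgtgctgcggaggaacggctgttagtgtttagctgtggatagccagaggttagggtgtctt
Plk4: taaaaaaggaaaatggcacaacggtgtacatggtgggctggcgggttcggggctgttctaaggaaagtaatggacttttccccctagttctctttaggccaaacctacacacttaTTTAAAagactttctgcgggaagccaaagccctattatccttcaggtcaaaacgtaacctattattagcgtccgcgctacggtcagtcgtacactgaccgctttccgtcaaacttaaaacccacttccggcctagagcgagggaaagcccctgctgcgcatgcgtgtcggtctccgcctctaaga
Counted from the RefSeq start of each window, TTTGAA began 30 and 32 bases after it in Plk1 and Aurka. In Cdk1 TTTGAA began 71 and 15 bases before that start, and in Ccnb1 TTTAAA began 42 bases before it. In Plk4 the single TTTAAA began 135 bases before the RefSeq start. For the printed windows these starts differ from the gene coordinates given above. The Plk4 window lies wholly before the annotated gene, which begins at 40800019. A match is a description of these letters and not a measured site.

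The libraries held 1621 EL1 and 1488 WTg barcodes, of which 1113 and 905 passed the filter of at least 500 genes, at least 1000 unique molecular identifiers (UMIs) and at most 20% mitochondrial UMIs. Kept cells carried 37961287 and 33007683 UMIs, with medians of 26543 and 34836 a cell, so that 3 UMIs of a gene amount to 0.079 and 0.0909 UMIs in 1000000 UMIs (CPM). No kept barcode was shared by the libraries, and 15 of all barcodes were. The label epithelial cell was borne out by Epcam, at 576 and 509 CPM, and by Krt8, at 6198 and 5878 CPM, while the duct channel gene Cftr was at 0 in both. Leukocyte genes marked 45 EL1 and 57 WTg cells. Mettl3 was at 15.1 CPM (13.9 to 16.4) for EL1 and 66.7 CPM (63.9 to 69.5) for WTg. With 1 library a group, no difference between them has a replicate check, no test was made, and every interval is a 95% counting interval that leaves out the spread between mice.

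Most member UMIs lay in cells with a UMI of Top2a, the topoisomerase that untangles replicated chromosomes. Top2a was seen in 430 of 1113 EL1 cells, or 38.6% (35.8 to 41.6), and in 350 of 905 WTg cells, or 38.7% (35.5 to 41.9). These cells were deeper, with medians of 39569 and 45054.5 UMIs against 21144 and 26806 in cells without Top2a, so levels in CPM are given first. The members' summed level was 310 CPM in EL1 and 307 CPM in WTg cells with Top2a, and 26.8 and 31.9 CPM in cells without it. Cells with Top2a held 92.9% (92.3 to 93.5) of the 6740 member UMIs of EL1 and 91.6% (90.9 to 92.3) of the 5888 of WTg. The cells richest in them, 51 in EL1 and 38 in WTg, together held at least as many member UMIs as all others. Among cells without Top2a, no member was seen in 426 of 683 in EL1 and 340 of 555 in WTg.

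Plk1, Aurkb and Ttk had 98.3%, 98.5% and 98.4% of their EL1 UMIs in cells with Top2a. Plk1 stood at 14 CPM (12.5 to 15.8) for EL1 and 12.2 CPM (10.6 to 13.9) for WTg cells with Top2a, and 5 of its 289 EL1 UMIs and 7 of its 221 WTg UMIs lay elsewhere. That was a 49.8-fold (21.1 to 155) and a 26.9-fold (12.9 to 67.8) difference. Aurka, the spindle pole kinase, was 19.5-fold (11.7 to 35.3) and 22.8-fold (11.8 to 50.5) higher in cells with Top2a. Aurkb, the centromere kinase, was 59.1-fold (29.8 to 138) and 85.5-fold (33.1 to 315) higher. The intervals of the Plk1, Aurka and Aurkb folds overlapped between the libraries. Nek2, at 26.8 and 24.1 CPM in cells with Top2a, was 17-fold and 12.9-fold higher there.

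The 3 checkpoint kinases differed in how far they kept to these cells. Bub1 was 35.8-fold (16.2 to 98.5) higher with Top2a in EL1 and 24.9-fold (13.4 to 52.6) in WTg. Ttk, with 128 UMIs in EL1 and 88 in WTg the most thinly counted member, was 55.2-fold (15 to 461) and 25-fold (8.26 to 123) higher. Bub1b, which forms the mitotic checkpoint complex that blocks the anaphase-promoting complex, was 11.4-fold (7.56 to 17.8) and 6.33-fold (4.38 to 9.41) higher, with 25 and 33 UMIs outside. The Cdk1 and Ccnb1 pair lay between these, Cdk1 at 12.4-fold (10.5 to 14.8) and 14.7-fold (12.2 to 17.9), Ccnb1 at 16.4-fold (12.6 to 21.7) and 12.8-fold (9.75 to 17.2).

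Plk4 stood apart from the other 9 members. It was 3.31-fold (2.8 to 3.92) higher with Top2a in EL1 and 3.1-fold (2.67 to 3.61) in WTg, and its interval lay below that of every other member in both libraries. Cells without Top2a held 181 of its 864 EL1 UMIs and 227 of its 1025 WTg UMIs, a level of 10.2 and 14.7 CPM. Of the 10 members, 9 were at least 4-fold higher in cells with Top2a in both libraries, all but Plk4, while 2.43% of 14872 genes in EL1 and 1.98% of 14914 in WTg were. The median fold over the members was 18.2 and 18.3. Over all genes the median, given as a log2 ratio and not as a fold, was near no change, at 0.04 and 0.09.

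**Figure D1:**
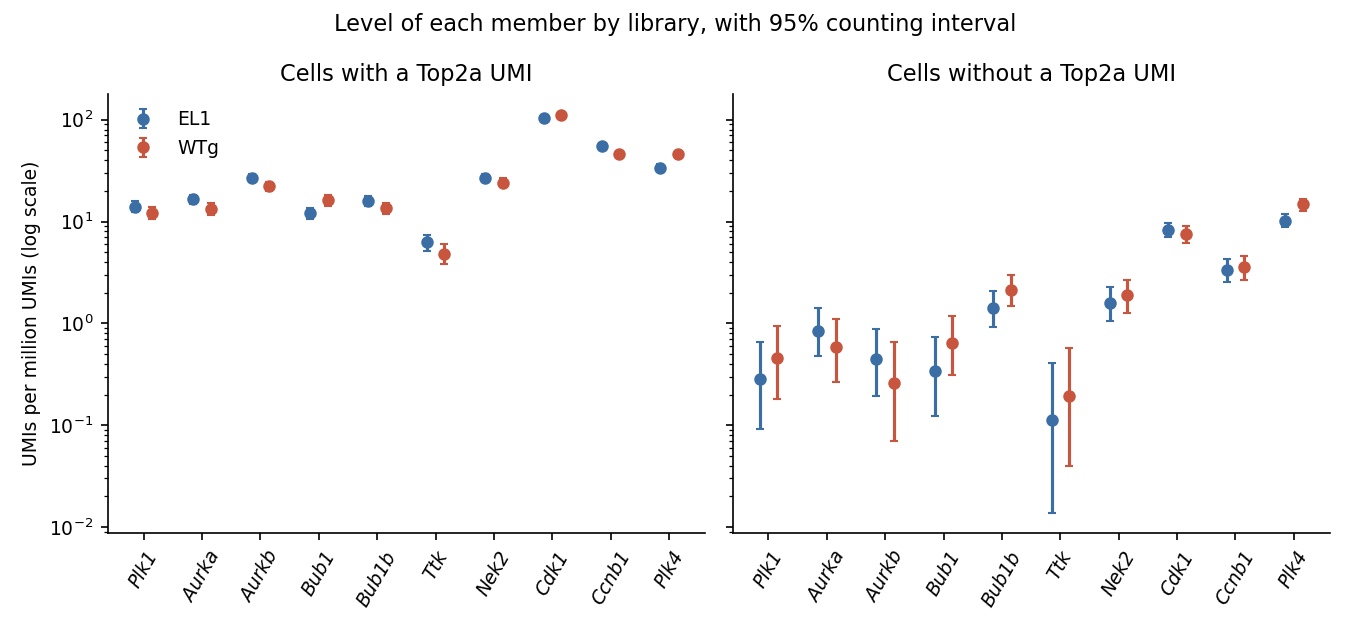
Level of each of the 10 members in CPM, on a log axis, in cells with (left) and without (right) a Top2a UMI, for EL1 (blue) and WTg (red), with bars for 95% counting intervals. All members sit lower on the right, Plk4 by the least, from 33.8 to 10.2 in EL1 and from 45.5 to 14.7 in WTg.

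Between the libraries the members' summed level was 178 CPM in each, a log2 ratio of WTg over EL1 of 0.01 (-0.04 to 0.06), against a median of -0.14 over the 16167 genes with at least 10 UMIs. None of the 10 members was 1.5-fold apart in either direction, while 32.8% of all genes were. Those genes needed only 10 UMIs, while Ttk, the most thinly counted member, had 128 in EL1 and 88 in WTg. The shares are therefore not matched by count. With each cell weighted equally, Aurka, at -0.73, and Bub1, at 0.62, were past 1.5-fold, as were 36.6% of all genes. Plk1, with 289 and 221 UMIs, had a log2 ratio of -0.19 (-0.44 to 0.07), and its interval holds both 0 and the median of all genes. In cells with Top2a the same ratio was -0.2 (-0.47 to 0.06).

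The members did not all lean the same way. Plk4 had 864 UMIs in EL1, at 22.8 CPM (21.3 to 24.3), and 1025 in WTg, at 31.1 CPM (29.2 to 33), and its log2 ratio was 0.45 (0.32 to 0.58). Bub1 was at 6.61 CPM (5.82 to 7.48) and 8.88 CPM (7.89 to 9.95), a ratio of 0.42 (0.18 to 0.67). These 2 were the members with counting intervals wholly above 0 over all cells, and Plk4 also had one in cells without Top2a, at 0.52 (0.24 to 0.81). Aurka, at 9.19 CPM (8.25 to 10.2) for EL1 and 7.33 CPM (6.44 to 8.32) for WTg, had a ratio of -0.33 (-0.57 to -0.09). Aurkb, at 14.4 CPM (13.2 to 15.7) and 11.9 CPM (10.7 to 13.1), had a ratio of -0.28 (-0.47 to -0.09). Ccnb1, at 30.7 CPM (29 to 32.5) and 25.9 CPM (24.2 to 27.7), had a ratio of -0.24 (-0.37 to -0.12). The intervals of these 3 lay below 0 but held the median of all genes. Cdk1 at 0.08, Nek2 at -0.13, Bub1b at -0.17 and Ttk at -0.34 had intervals that held 0. The share of all genes with an interval that leaves out 0 between the libraries was not counted, so this sorting has no background. In cells with Top2a, 30.4% of 14812 genes were 1.5-fold apart, a share again not matched by count. None of the 10 members was, with Plk4 at 0.43, Bub1 at 0.41, Cdk1 at 0.1 (0.01 to 0.19) and Ccnb1 at -0.26. With equal weights Aurka, at -0.71, and Plk4, at 0.69, were past it in these cells, as were 35.5% of genes. Top2a itself was higher in WTg, by a log2 ratio of 0.2 (0.14 to 0.26) in these cells.

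The ratios of some members rested on few cells. A single WTg cell of 129634 UMIs and 10446 genes held 246 member UMIs, among them 74 of the 855 Ccnb1 UMIs and 18 of the 221 Plk1 UMIs of that library. It had 151 Top2a UMIs and all 10 members. The EL1 cell with the most member UMIs held 151 among 55344 UMIs, with 23 each of Plk1 and Aurka and 38 of Ccnb1. Without the 1 EL1 and 3 WTg cells that had 10000 genes or more, the ratio of Ccnb1 was -0.4 and that of the summed members -0.07. Ttk went from -0.34 to 0.24 with each cell weighted equally. Whether large cells were doublets was not tested beyond a caller that marked 4 cells in each library, 1 of them in each with at least 5 members.

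How many members a cell carried was counted next. Without thinning, 140 EL1 and 104 WTg cells had UMIs of at least 5 members, and 139 and 101 of them had Top2a. Those were 32.3% (27.9 to 37) and 28.9% (24.2 to 33.9) of the cells with Top2a. Over the Top2a cells with a member, the numbers seen least often were 5 and 6 in EL1 and 7 in WTg. In EL1, 99 of 430 cells had none, 129 had 1 or 2, 15 had 5, 15 had 6, and 87 had 8 to 10. In WTg, 54 of 350 cells had none, 136 had 1 or 2, 11 had 5, 8 had 7, and 66 had 8 to 10. All 10 members were seen in 28 EL1 cells and 15 WTg cells. Cells with at least 5 members held 81.4% of the member UMIs of EL1 and 78.2% of those of WTg, and 45.2% to 56.2% of those of Plk4.

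At equal depth the share with at least 5 members was smaller. Each cell was thinned to 10000 UMIs, which left out 170 EL1 and 202 WTg cells that had fewer. Top2a was called again on the thinned counts, here and in the pairs below, so its cells were fewer than at full depth. The share was 21.2% (16.4 to 26.7) of 259 EL1 and 15.9% (11.2 to 21.6) of 208 WTg cells with Top2a, with overlapping intervals. In cells without Top2a it was 0 of 684, which allows up to 0.538%, and 2 of 495, or 0.404% (0.049 to 1.45). Leukocyte cells, taken as a background at medians of 25769 and 33569 UMIs before thinning, gave 1 of 17 and 1 of 29, so their share has wide limits, up to 28.7% and 17.8%. The medians of the Top2a cells were 41709 and 44874.5 UMIs. Before thinning, 1 leukocyte cell in each library held all 10 members, and 4 in each had Top2a. Whether those are dividing leukocytes or mixed droplets was not tested. At this depth 8 EL1 and 3 WTg cells with Top2a had at least 8 members.

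**Figure D2:**
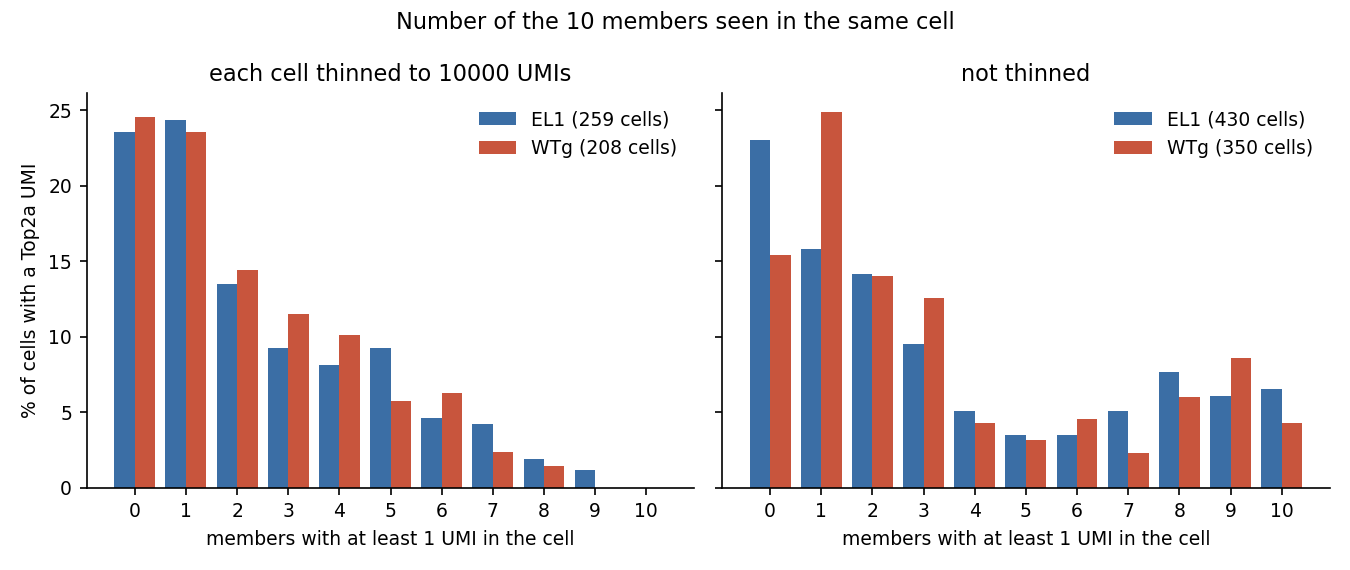
Share of cells with a Top2a UMI, in percent, by the number of the 10 members with at least 1 UMI in the cell, for EL1 (blue) and WTg (red), after thinning to 10000 UMIs (left) and at full depth (right). At full depth 87 EL1 and 66 WTg cells lie at 8 to 10 members, after low bars at 5 and 6 in EL1 and at 7 in WTg, and after thinning 8 and 3 cells lie there, with 24 EL1 cells at 5 members against 21 at 4.

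A member seen alone in a cell was mostly Plk4 or Cdk1. Of the 250 EL1 cells with a single member, 112 had Plk4 and 87 had Cdk1, against 4 with Plk1, 4 with Aurkb and 0 with Ttk. Of the 240 such WTg cells, 133 had Plk4 and 69 had Cdk1, against 2 with Plk1 and 0 with Bub1 or Ttk. Bub1b came next in WTg, with 17 cells, and Ccnb1 in EL1, with 16. Among cells with at least 5 members, Cdk1 was present in 140 of 140 and 99 of 104, Plk4 in 132 and 100, and Ccnb1 in 129 and 94. Plk1 was present in 89 of 140 and 71 of 104, and Ttk in 74 and 42.

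Within cells with Top2a the members went together in pairs. At full depth, all 90 ordered pairs had a higher share of cells with the second gene when the first was seen, with intervals apart for all 90, in both libraries. Depth moved with this, since cells with a Plk1 UMI had medians of 58783 and 57876 UMIs and cells without it 35772 and 42369.5. After thinning to 10000 UMIs, 88 of 90 pairs in EL1 and 90 of 90 in WTg stayed on the same side, with intervals apart in 61 and 43. Depth before thinning still moved with many partners. Cells with the partner were the deeper ones for 6 of 10 partners in EL1 and 9 of 10 in WTg, with median UMIs from 0.947 times (Bub1) to 1.36 times (Nek2) those of cells without it in EL1 and from 0.995 times (Plk4) to 1.34 times (Ccnb1) in WTg. For Plk1 the medians with and without it were 41174.5 and 41709 UMIs in EL1 and 44881 and 44874.5 in WTg. The part of depth in these differences was not tested. Pairs of other genes in the same cells were not counted at either depth. The pair counts are therefore not shown to be particular to the members.

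The ordered pair with the widest difference after thinning was Ccnb1 given Plk1, the cyclin and a kinase that helps to switch its complex on. In reverse, Plk1 was seen in 38.6% of EL1 cells with Ccnb1 and 2.27% of those without, and in 32.1% and 1.94% in WTg. At full depth the widest in EL1 was Aurkb given Plk1, at 88.2% against 15.1%. After thinning, Ccnb1 was seen in 32 of 36 EL1 cells with Plk1, or 88.9% (73.9 to 96.9), and in 51 of 223 without, or 22.9% (17.5 to 28.9). In WTg it was seen in 17 of 20 with Plk1, or 85% (62.1 to 96.8), and in 36 of 188 without, or 19.1% (13.8 to 25.5). Aurka with Ccnb1 came next in both libraries, at 82.5% against 22.8% in EL1 and 75% against 19% in WTg, where cells with and without Aurka had medians of 47147.5 and 40758 UMIs in EL1 and 57051 and 43756.5 in WTg before thinning. The checkpoint kinase Bub1 was seen in 37.7% (25.6 to 51) of EL1 cells with Aurkb and 7.58% (4.3 to 12.2) of those without, and in 37% (23.2 to 52.5) and 9.88% (5.75 to 15.5) in WTg. The exceptions in EL1 after thinning were Plk1 and Ttk, seen together in 2 cells. Plk1 was in 10.5% (1.3 to 33.1) of 19 cells with Ttk and 14.2% (10 to 19.2) of those without, with overlapping intervals. At full depth the same genes were seen together in 52 EL1 cells, with Plk1 in 65.8% of cells with Ttk and 11.7% of those without. Pairs with Plk4 were looser. After thinning, intervals were apart in 7 of 18 pairs with Plk4 in EL1 and 1 of 18 in WTg, against 54 and 42 of the 72 pairs without it.

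**Figure D3:**
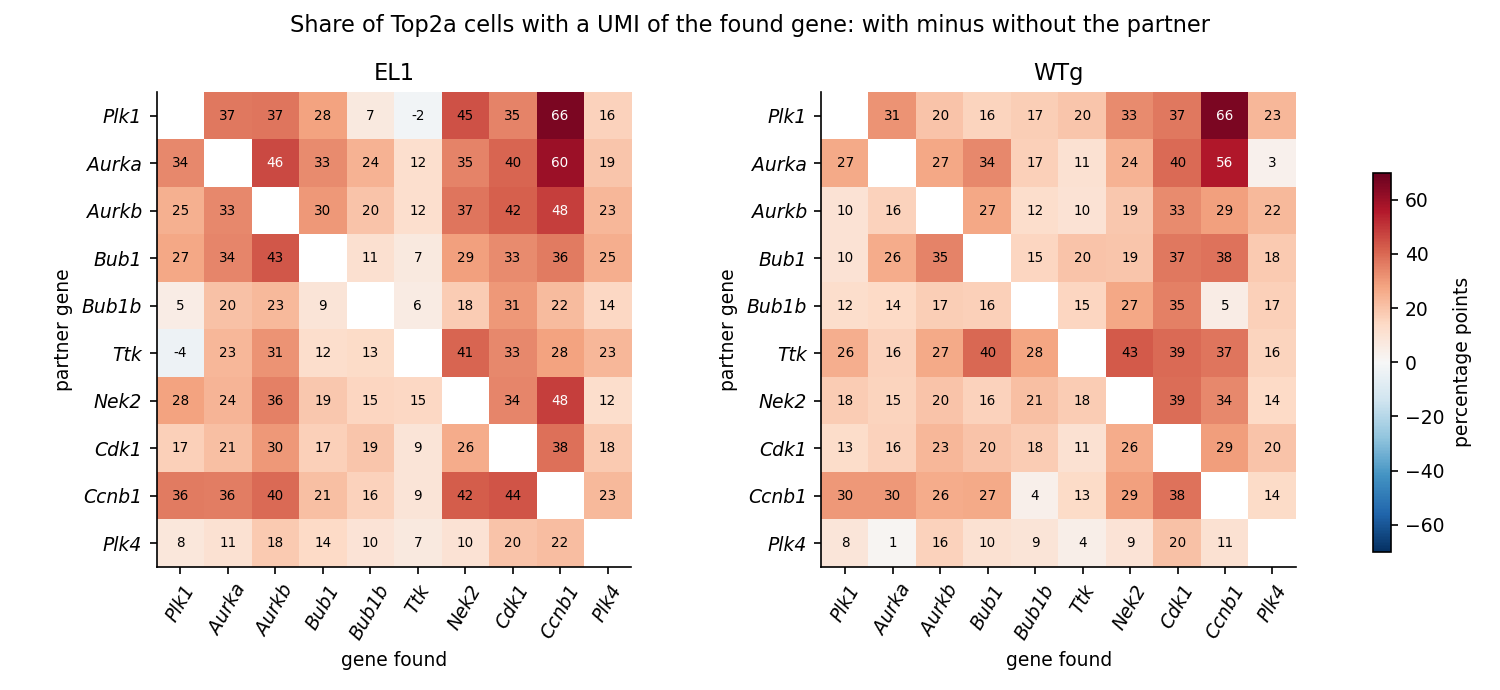
Difference in percentage points, in cells with a Top2a UMI thinned to 10000 UMIs, between the share of cells with the found gene (columns) when the partner gene (rows) is and is not seen, for EL1 (left) and WTg (right). Ccnb1 given Plk1 is the darkest cell in both at 66 and 65.9, and the Plk4 row and column are pale, between 6.85 and 25.3 in EL1 and between 1.3 and 23.3 in WTg.

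The Top2a cells were then ranked by a list of 18 S phase genes and a list of 18 genes named late mitosis, none of them members. The late list also holds Ccnb2, Cenpf and Tpx2. G2 cells were not told apart from mitotic cells, so a range is not a stage. The measure is the percentage of late mitosis UMIs, such as those of Cdc20, Ube2c and Kif20a, among the UMIs of both lists, and the 391 EL1 and 327 WTg cells with at least 10 such UMIs were cut into 3 ranges of like size at 9.52% and 44.2%. All 10 members were higher in the late than in the S range in both libraries, with intervals above 0, as were 24.4% of 13019 genes in EL1 and 29.1% of 12952 in WTg. The median log2 ratio over all genes was 0.11 and 0.17. Their summed level rose from 68.6 CPM (61.5 to 76.3) through 110 to 659 CPM (641 to 677) in EL1 and from 63.8 CPM (57.7 to 70.4) through 150 to 707 CPM (686 to 729) in WTg. The late range had 134 EL1 and 105 WTg cells.

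Plk1 was near absent until the late range. It had 0 UMIs in the 112 EL1 cells of the S range, 12 in the 145 of the middle range and 272 in the late range, at 35 CPM (31 to 39.4), at least 57.6-fold higher against a floor of 3 UMIs. In WTg it had 2, 13 and 199 UMIs, the last at 33.5 CPM (29 to 38.5). The late ranges of the libraries had overlapping intervals for Plk1. Aurkb entered earlier, at 0, 8.08 (6.14 to 10.5) and 61.9 CPM (56.5 to 67.7) in EL1 and 1.28, 9.66 (7.17 to 12.7) and 55.5 CPM (49.7 to 61.8) in WTg. Aurka was at 1.62, 2.09 and 39.9 CPM in EL1 and at 1.28, 2.9 and 35.3 CPM in WTg, so the intervals of its middle and S ranges overlapped. Nek2 went from 1.82 through 6.83 to 62.1 CPM in EL1 and from 0.64 through 5.99 to 65.3 CPM in WTg.

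Cdk1 was present through the whole range, at 31.2 CPM (26.5 to 36.5), 46.8 (42 to 52.1) and 205 (195 to 215) in EL1 and at 25.1 (21.3 to 29.4), 63.6 (56.9 to 70.8) and 243 (231 to 256) in WTg. Its partner Ccnb1 was also seen in every range but rose more than Cdk1 from the S to the late range. It was at 10.1, 9.76 and 127 CPM in EL1 and 3.04, 10.4 and 122 CPM in WTg. The Ccnb1 level of the S range was higher in EL1 (7.51 to 13.3) than in WTg (1.83 to 4.75), from 50 and 19 UMIs. Bub1 was at 28.4 CPM (24.8 to 32.4) in the late range of EL1 and 41.4 CPM (36.4 to 46.9) in that of WTg, and the intervals of its middle range were apart too, 1.81 to 4.47 against 5.04 to 9.86. Bub1b rose by a log2 ratio of 2.84 (2.2 to 3.56) and 3.07 (2.43 to 3.78) from the S to the late range, and Ttk from 1.21 to 14 CPM in EL1 and from 0 to 12.8 CPM in WTg.

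Plk4 rose least, by log2 ratios of 1.63 (1.3 to 1.98) in EL1 and 1.25 (1 to 1.52) in WTg, below the interval of every other member with one. It was the member with a higher level in WTg in all 3 ranges with intervals apart, at 18 CPM (14.5 to 22.2) against 28.6 (24.6 to 33.1), 21.5 (18.2 to 25.1) against 38.5 (33.3 to 44.2) and 56 (50.8 to 61.5) against 68.3 (61.8 to 75.3). Mettl3 did not follow the axis, at 14.8, 13.2 and 15.3 CPM in EL1 and 67.2, 62.2 and 62.4 CPM in WTg.

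**Figure D4:**
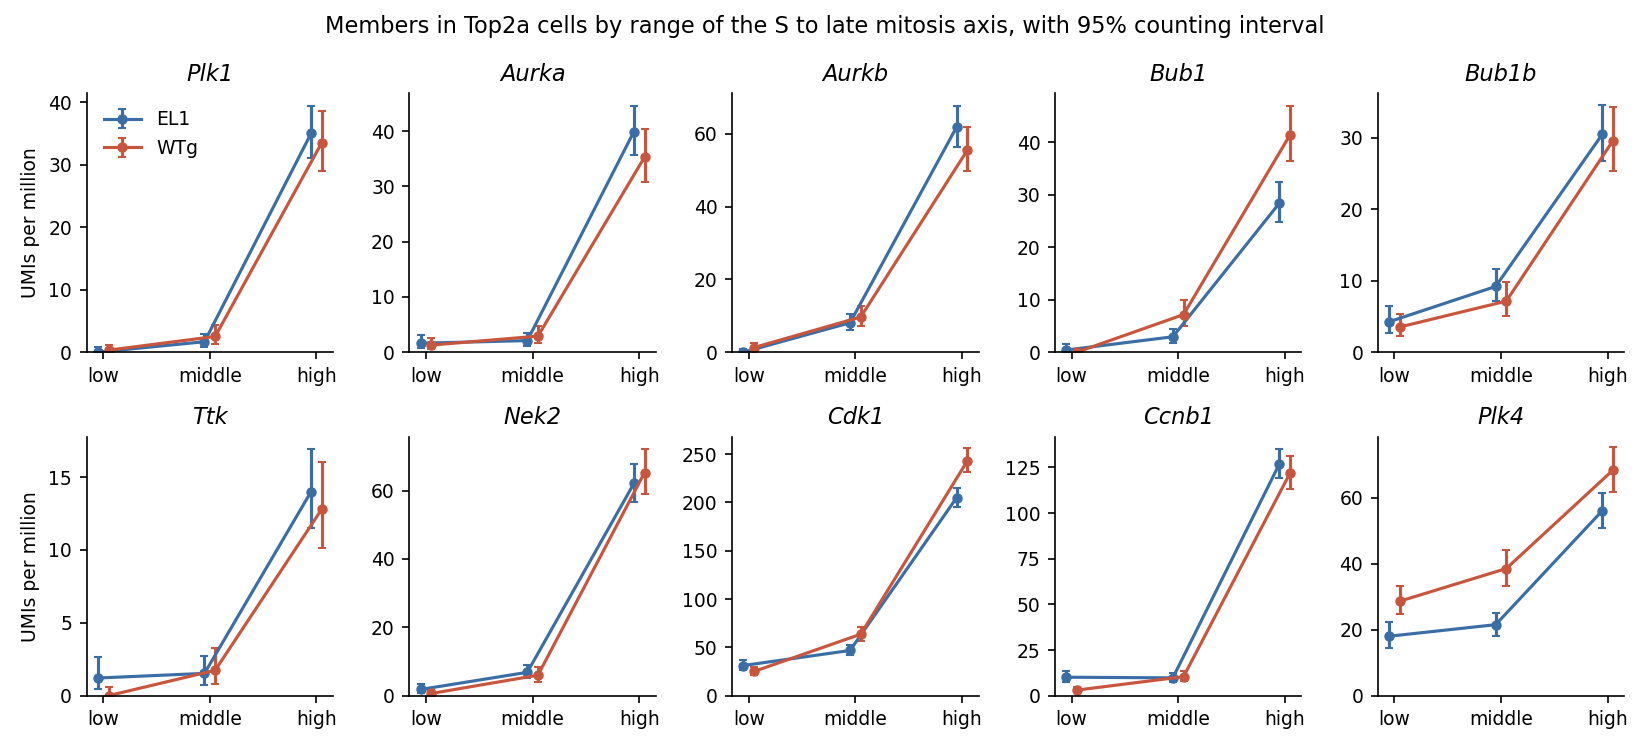
Level of each member in CPM, on axes from 0 with a scale of their own, in 3 ranges of cells with a Top2a UMI. These are low (S phase list), middle and high (late mitosis list), for EL1 (blue) and WTg (red), with 95% counting intervals. Plk1, Aurka, Ccnb1 and Nek2 lie low on their scales until the high range. Cdk1 and Plk4 start higher, and the Plk4 line of WTg runs above that of EL1 throughout.

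Relative to all their UMIs, cells that carried many members did not have more Mettl3. In EL1, Mettl3 was at 15.9 CPM (13.7 to 18.3) in cells with 0 members and 15.8 CPM (12.8 to 19.4) in those with 8 to 10. In WTg it was at 71.2 CPM (65.7 to 77.1), 65.3, 76, 76.7 (65.6 to 89.2) and, in the 66 cells with 8 to 10 members, 49.5 CPM (43.3 to 56.3). The last value was below the others by more than counting error, and the transcripts of the transgene and of the native gene were not told apart. Across the 1113 EL1 and 905 WTg cells, Pearson's r between the log level of Mettl3 and that of the summed members was 0.06 and -0.05, where both values of a cell share its depth.

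The cells' lineage genes moved with the members. The pancreatic digestive genes, such as Ctrb1 and Cela1, made up 15.2% of EL1 and 16.7% of WTg UMIs. Cells were cut into 3 ranges by the CPM of 18 of these acinar genes, over both libraries and without leukocyte cells. The summed members were at 301 CPM (290 to 311) in the low, 172 in the middle and 87.5 CPM (82.6 to 92.5) in the high range of EL1, and at 335 (319 to 351), 206 and 104 CPM (98.6 to 109) in WTg. Most genes were lower in the high range, with intervals below 0 for 66.7% of 13849 genes in EL1 and 72.6% of 13715 in WTg and median log2 ratios of -0.59 and -0.83. All 10 members had intervals below 0 in both libraries, with log2 ratios from -2.57 for Plk1 to -1.21 for Plk4 in EL1 and from -3.04 for Ttk to -0.86 for Plk4 in WTg. The sum relative to UMIs outside the acinar list, a scaling chosen after seeing the data, gave -1.45 and -1.35 in place of log2 ratios of -1.78 and -1.69 with all UMIs. At equal depth, 9.67% (6.71 to 13.4) of EL1 cells in the low range and 2.44% (0.986 to 4.96) in the high range had at least 5 members, and 10.2% (5.56 to 16.9) and 2.11% (0.776 to 4.53) in WTg. The high range held 311 EL1 and 328 WTg cells, and 224 and 195 cells lay near a limit between ranges.

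In CPM, the summed members were lower in EL1 and higher in WTg in cells rich in neuroendocrine genes, which mark hormone-secreting and related cells. The WTg rise was near that of all genes. Of the 15 genes, Chga alone gave 84.6% of the list's UMIs in EL1 and 70.4% in WTg, Scg2 was at 0 in EL1, Pax6 had 2 and 1 UMIs, and the islet hormones summed to 2.63 and 3.39 CPM, so the list reads mostly Chga, a protein of secretory granules. In EL1 the summed members were at 214 CPM (207 to 222) in the low, 164 in the middle and 148 CPM (142 to 155) in the high range, a log2 ratio of -0.53 (-0.61 to -0.45). In WTg they were at 165 CPM (156 to 174), 172 and 222 CPM (212 to 233), a ratio of 0.43 (0.33 to 0.53). Intervals were below 0 for 8 of 10 members in EL1, against 13% of 14017 genes, and above 0 for 8 of 10 in WTg, against 50.5% of 13634 genes. Over all genes the median ratio was 0.3 in EL1 and 0.41 in WTg, so the WTg sum lay near the median of all genes and the EL1 sum below it. In WTg, Plk4, at -0.37 (-0.63 to -0.11), and Plk1, at -0.31 (-0.84 to 0.2), were the members that were not higher in the high range.

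The size of the WTg ratio rested on 3 cells. Those with 10000 genes or more all fell in the high range, and without them the summed ratio of WTg was 0.16 (0.05 to 0.27) and that of Plk1 -1.05 (-1.7 to -0.43), while EL1 was at -0.52. The intervals of 4 WTg members, Aurka, Aurkb, Bub1 and Cdk1, then stayed above 0, and those of Plk1 and Plk4 lay below it. The share and the median over all genes were not recomputed without these cells. A single gene of the same list, Insm1, a factor of endocrine differentiation, was split by member count without leukocyte cells. The other genes of the list are not given by this split, so Insm1 does not stand for the list. Insm1 was at 38 CPM (33.5 to 42.9) in the 103 WTg cells with at least 5 members. It was at 13.4 CPM (11.3 to 15.8) in the 246 Top2a cells with fewer. In EL1 it was at 32.3 CPM (28.7 to 36.3) in 138 cells and 50.5 CPM (46.4 to 54.8) in 289. The share of cells with an Insm1 UMI was higher with at least 5 members in both libraries, in cells of greater depth. It was 44.7% against 22% in WTg and 55.8% against 43.3% in EL1. The list as a whole did not rise steadily with members in WTg. It was at 3011.9 CPM with 0 members, 3162.3 CPM with 1 or 2 and 2162 CPM with 3 to 4. The list was at 2364 CPM with 5 to 7 members and 3767.6 CPM with 8 to 10. In EL1 the list was at 5564.8 CPM with 0 members and 3037 CPM with 8 to 10.

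**Figure D5:**
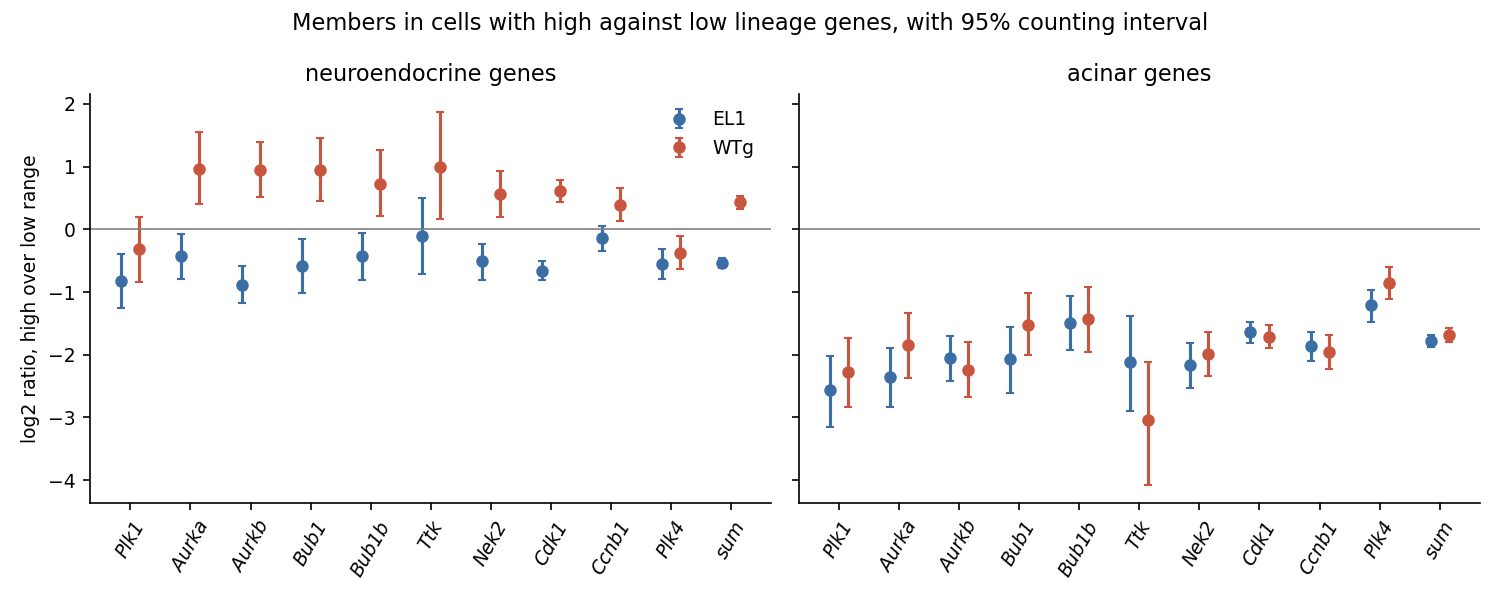
Log2 ratio of each member's level in the high over the low range of cells by neuroendocrine genes (left) and acinar genes (right), for EL1 (blue) and WTg (red), with 95% counting intervals and a line at 0. On the left the sums lie at -0.53 and 0.43, with Plk1 and Plk4 of WTg below 0, and on the right every member of both libraries is below 0.

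The partners of the members were read from 7 lists of 82 genes in all, of which 80 had at least 10 UMIs. Between the libraries 4 were at least 1.5-fold higher and 6 at least 1.5-fold lower in WTg. Those 10 made up 12.5% of the 80, against 32.8% of all genes, with 15.7% higher and 17.1% lower. These shares are not matched by count either. Among 13 cyclins and regulators of Cdk1 none was past 1.5-fold, with Cks1b, a Cdk-binding subunit, highest at 0.39 (0.3 to 0.48) and Ccnb2, the other mitotic cyclin B, lowest at -0.56 (-0.68 to -0.44). Among 11 activators and substrates of Plk1 and the Aurora kinases none was, from Kif2c, a microtubule-removing kinesin, at 0.23 (-0.06 to 0.53) to Ska3, of the outer kinetochore, at -0.54 (-1.02 to -0.07). Among 11 checkpoint partners, 1 was higher, Mad1l1, which carries Mad2 to the kinetochore, at 1.11 (0.94 to 1.27). Another was lower, Sgo1, which Bub1 recruits to guard centromeric cohesion, at -0.96 (-1.17 to -0.75), from 16.1 CPM in EL1 to 8.3 CPM in WTg.

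None of the 8 centriole partners passed 1.5-fold, from Cep85 at 0.36 (0.19 to 0.53) to Sass6, the cartwheel protein of new centrioles, at -0.25 (-0.49 to -0.01). Of 11 genes of the anaphase-promoting complex and mitotic exit, 1 was higher, Espl1, the separase, at 0.6 (0.27 to 0.94), and Anapc1 was lowest at -0.41 (-0.53 to -0.28). Of 13 transcription factors of mitotic genes 2 were lower, the retinoblastoma-family genes Rbl1, at -0.7 (-0.87 to -0.52), and Rbl2, at -0.68 (-0.88 to -0.48), and Lin54, which binds the homology region, was highest at 0.32 (0.19 to 0.45). Of 15 measured paralogues, 2 were higher and 3 lower. Plk5 was highest at 2.69 (2.17 to 3.26), from 35 UMIs in EL1 and 197 in WTg, and Nek3 lowest at -1.24 (-2.04 to -0.49), from 57 and 21, among those with at least 50 UMIs. The others were Cdk6 at 1.18 (0.59 to 1.79), Nek7 at -0.68 (-0.82 to -0.55) and Nek5, with 9 and 1 UMIs, at -2.97 (-8.42 to -0.12), named, like Rbl2, after their values were seen.

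In cells with Top2a, where 2.43% and 1.98% of all genes were at least 4-fold higher, 10 of 11 activators and substrates were so in both libraries, with median folds of 15.5 and 17.1. Among checkpoint partners 8 of 11 were, with medians of 10.1 and 9.6, and among cyclins and Cdk1 regulators 6 of 13, with medians of 2.86 and 2.61. Fewer passed in the other lists, 4 of 11 genes of the anaphase-promoting complex and mitotic exit (medians 2.11 and 2.68), 1 of 8 centriole partners (2.14 and 2.11), 2 of 13 transcription factors (1.49 and 1.31) and 2 of 14 paralogues (1.2 in both). Over all cells, the genes whose log level was most like that of the summed members were Birc5, the survivin subunit of the Aurora B complex, with r of 0.8 in EL1 and 0.76 in WTg, then Ccna2, Mki67, Top2a, Cdca8, Hmgb2, Kif11, Tpx2, Cenpf and Nusap1, out of 11145 genes seen in at least 5% of cells of each library. These are correlations across 1113 and 905 cells that share depth, and Birc5, Cdca8, Tpx2, Cenpf and Nusap1 are also on the late mitosis list. Each member's own r with the sum, which contains it, ran from 0.53 for Ttk to 0.85 for Cdk1 in EL1 and from 0.44 to 0.81 in WTg.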

How the data were processed

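The study's cells were freed from pancreatic tumours with collagenase D and DNase I, strained, cleared of red cells, stained and passed through a cell sorter to check viability. The authors deposited UMI counts per gene and barcode from Cell Ranger, version 6.0.2 per the file headers, with GRCm38 and Seurat 4.0.5 named in the submitters' processing notes. Cell Ranger assigns reads near the 3′ end with strand, so levels of different genes were not compared per length. Dense copies of the matrices were not used here. Members and lists were chosen with earlier results of these data known.

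Barcodes with at least 500 genes, 1000 UMIs and at most 20% mitochondrial UMIs were kept. UMIs were summed per library and divided by all UMIs of the same cells (CPM), with exact Poisson intervals. Ratios had exact conditional binomial and shares Clopper-Pearson intervals, at 95%. The floor was 3 counts. UMIs are taken as molecules, and intervals and floors cover counting error only. A cell was called a leukocyte with at least 3 of 12 leukocyte genes at 2 UMIs or more. Cells near a limit of the lineage ranges lie within 10% of it. Companions and the shares of all genes were counted at 10 UMIs and named, as the highest and lowest ratio of each list, at 50 UMIs. The 10 genes most like the members were ranked by the lower r of the 2 libraries. Doublets were called with Scrublet in scanpy 1.11.5, at an expected rate of 2%, and removed only as an alternative. Python 3.11.15, numpy 2.4.6, scipy 1.17.1 and edgeR 4.0.16 in R 4.3.3 (scaling factors alone) were used, and the ratio and interval functions were tested on drawn counts with known folds. The other settings were stricter cells, all barcodes, other scalings, depths and limits, and cells weighted equally.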

Additional observations from a re-analysis of the deposited data

Results flagged for a closer look

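The high over low range of the neuroendocrine genes was flagged because members moved in opposite directions in the 2 libraries, with counting intervals on opposite sides of 0. The difference between the libraries was not tested, since each is 1 sample. The log2 ratios were -0.53 in EL1 and 0.43 in WTg for the summed members, -0.43 and 0.97 for Aurka, -0.88 and 0.95 for Aurkb, -0.59 and 0.95 for Bub1, -0.43 and 0.73 for Bub1b, -0.51 and 0.56 for Nek2, and -0.66 and 0.61 for Cdk1. These were 6 of the 10 members. The share of all genes with intervals on opposite sides in this way was not counted. Taken singly, intervals were below 0 for 13% of 14017 genes in EL1 and above 0 for 50.5% of 13634 in WTg. Over all genes the median of the same ratio was 0.3 in EL1 and 0.41 in WTg, so the WTg sum lay near that median. Both include the cells of 10000 genes or more, and the median was not recomputed without them. Without the cells of 10000 genes or more, 3 in WTg, the WTg ratios were 0.74 for Aurka, 0.63 for Aurkb, 0.78 for Bub1, 0.41 for Cdk1, 0.41 (-0.15 to 0.97) for Bub1b and 0.25 (-0.14 to 0.65) for Nek2.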

How the results depend on the processing

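No paired analysis was possible because there was a single library of each genotype. The summed members' ratio of WTg over EL1 ran from -0.07 over all cells and -0.08 in cells with Top2a, without cells of 10000 genes or more, to 0.12 and 0.1 with TMM scaling, which adds 0.11 to every ratio. The share of cells with Top2a was 29.7% in EL1 and 28.2% in WTg over all barcodes, 42.3% in WTg with stricter cells, 22% and 23.4% for at least 3 Top2a UMIs, 13.4% and 16% thinned to 2000 UMIs and 27.5% and 29.6% thinned to 10000. The share of Top2a cells with at least 5 members was 0.709% and 0.746% thinned to 2000, 32.4% and 30.4% thinned to 20000, and 32.3% and 28.9% not thinned. With 2 ranges in place of 3, the ratios of the summed members were 2.9 and 3.03 along the axis, -0.37 and 0.23 for neuroendocrine and -1.22 and -1.2 for acinar genes. With leukocyte cells kept in, the acinar ratios were -1.65 and -1.44.

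Chosen after seeing the data, equal weights gave -1.47 and -1.46 for acinar and 0.32 for neuroendocrine genes in WTg, the UMIs outside the acinar list gave -1.45 and -1.35, and leaving out cells of 10000 genes or more gave -1.49 and 0.16 in WTg. Of the single members, Cdk1 over all cells went from 0.2 with TMM scaling to -0.09 with equal weights, Ttk reached 0.24 and Bub1b 0.07 with equal weights, and the other 7 kept their direction over all cells in every setting. The cause was not tested. The count of companions past 1.5-fold ran from 7 to 10. Depth limits Ttk most, with 88 and 128 UMIs, and the single library a group limits every comparison.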

Other observations

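Barcodes that failed the filter, 508 in EL1 and 583 in WTg, also held the members, at a summed 86.7 CPM (71 to 105) and 98.7 CPM (85 to 114). Plk1 had 1 and 2 UMIs there, at 0.826 and 1.07 CPM. Plk4 had 27 and 72 UMIs, at 22.3 CPM (14.7 to 32.5) and 38.6 CPM (30.2 to 48.6), close to its level in the kept cells of the same library, 22.8 and 31.1 CPM, while Plk1 was at 7.61 and 6.7 CPM in kept cells. Mettl14, the partner of Mettl3, was at 9.8 CPM (8.83 to 10.8) for EL1 and 8.3 CPM (7.35 to 9.34) for WTg kept cells, and Igf2bp2, a reader of N6-methyladenosine, at 1.08 and 0.969 CPM.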
